A study of Mus musculus with 12 samples.

Results

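The 8 genes described here encode parts of the PI3K and mTOR pathway. They are Pik3cb and Agap2 at the PI3K level, Tsc1 and Tsc2 at the brake on mTOR complex 1, Mtor, Rptor and Rictor in the kinase complexes themselves, and Rps6kb1 as a direct substrate kinase. They were taken by name, with earlier results of these data known, and they are 8 of the 24079 genes in the count table. All 8 were among the 17823 genes tested, which had at least 15 reads over the 12 libraries. The libraries held RNA bound to tagged ribosomes of hippocampal CA1 pyramidal cells, from 6 WT and 6 Fmr1-/y replicates. Mice of both groups carried the Wfs1-CreERT2 transgene and the RiboTag allele, in which Cre recombination replaces an exon of Rpl22 so that the ribosomal protein carries an HA tag. The knockout mice lacked Fmr1, the X-linked gene of the RNA-binding protein FMRP, whose loss causes fragile X syndrome. All mice were males aged 2 to 6 months that received tamoxifen at 100 mg/kg for 3 days and were used 1 week later. Each replicate was a pool of 4 to 6 animals. The tag was restricted to cells with Wfs1 promoter activity, but the whole hippocampus was dissected, so the starting lysate also held other cell types.

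PI3K phosphorylates a membrane lipid after receptor activation, and Akt recruited to that lipid inhibits the TSC1-TSC2 complex. TSC1-TSC2 otherwise keeps the small GTPase Rheb inactive, and active Rheb switches on mTOR complex 1, which drives cap-dependent translation through S6 kinases and the 4E-BP proteins. In CA1 neurons this pathway links metabotropic glutamate receptors and neurotrophins to local protein synthesis and synaptic plasticity, and FMRP is known to bind several of its mRNAs. Because mTOR complex 1 acts most strongly on mRNAs that begin with a terminal oligopyrimidine (TOP) tract, the annotated first bases of the 8 genes are given with those of Rps6, a ribosomal protein gene of that class.

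Each window holds 10 bases before and 15 bases from the RefSeq transcription start in GRCm38.p6, read 5′ to 3′ on the strand of the gene. Capitals mark the first 5 transcribed bases, where a TOP start was counted as a C followed directly by 4 bases that are each C or T.
Pik3cb (chr9:99140197-99140221, minus strand): gcgctcgcgcAGGCGcgggcacggc
Agap2 (chr10:127078897-127078921, plus strand): ccgcctcctcCTCAAtgtgagggga
Tsc1 (chr2:28641223-28641247, plus strand): gcttcacgccAGGGGgaggtgctgc
Tsc2 (chr17:24632613-24632637, minus strand): ccccggaagtACGGGttgcgcttcc
Mtor (chr4:148448572-148448596, plus strand): cctccccaccTCCCTggcctagaag
Rptor (chr11:119602895-119602919, plus strand): gggggaagggAGGACggaacaccga
Rictor (chr15:6708371-6708395, plus strand): ggtttccggtGTTGTgactgaaacc
Rps6kb1 (chr11:86544793-86544817, minus strand): gcgccggagcTGAACttgaggagcc
Rps6 (chr4:86857353-86857377, minus strand): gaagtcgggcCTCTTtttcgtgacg

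None of the 8 pathway genes had such a start, against 823 of the 32851 starts in the same table (2.51%), while Rps6 had one. The first 5 bases of Mtor were all pyrimidines but began with T, and those of Agap2 began with a C followed by purines from the fourth position on. A match or its absence describes these letters at 1 annotated start only. The ribosome-bound level of Rps6 did not pass the test (log2 fold change Fmr1-/y over WT 0.07, SE 0.07, edgeR adjusted p = 0.883).

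Between 39400980 and 65565479 reads per library fell on genes (median 41711923 in WT and 49579609 in Fmr1-/y). Each WT library carried between 1971 and 2608 Fmr1 reads. In Fmr1-/y, replicate 2 carried 1 and the remaining 5 libraries had 0, so every library followed its label. The 5 CA1 pyramidal markers together reached 7858 to 9705 CPM (read counts scaled to library size) in WT and 7769 to 9032 in Fmr1-/y. Markers of other cells were also present, with 4 choroid plexus markers at 6347 to 11818 CPM in WT and 8267 to 17421 CPM in Fmr1-/y, and no marker was at 0 in any library. Fmr1-/y was tested against WT by the quasi-likelihood method of edgeR across all genes, with Benjamini-Hochberg adjustment, and levels are CPM after TMM scaling.

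None of the 8 genes passed an adjusted p of 0.05. At that threshold edgeR called 4 of 17823 genes (0.0224%), so calls were rare in this comparison, and DESeq2 called 84 (0.471%) and again none of the 8. At an unadjusted p under 0.05, 1 of the 8 genes was called, Agap2, against 7.96% of all genes tested in either direction with 3.67% lower and 4.29% higher in Fmr1-/y. Among genes with a mean of at least 20 CPM, as all 8 have, 5.13% were lower at that p. All 8 estimates were below 0, with a median log2 fold change of -0.07 against 0.0042 over all genes tested. For reading that count, 48.6% of all genes tested and 52.6% of the 7645 genes with a mean of at least 20 CPM had an estimate below 0, and the 8 genes share libraries and are not independent. The sign of Rptor and of Rictor turned when 1 library was left out (log2 fold change 0.02 for Rptor without WT replicate 5, and 0.0031 for Rictor without Fmr1-/y replicate 5), and that of Rptor, Rictor and Tsc1 turned with a marker level as a covariate (0.038, 0.047 and 0.028). The sign of all 8 estimates stayed below 0 under each of the 3 scalings used. With library totals in place of TMM, however, each of the 8 was smaller in size, and Rptor stood at -0.0024.

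**Figure D1:**
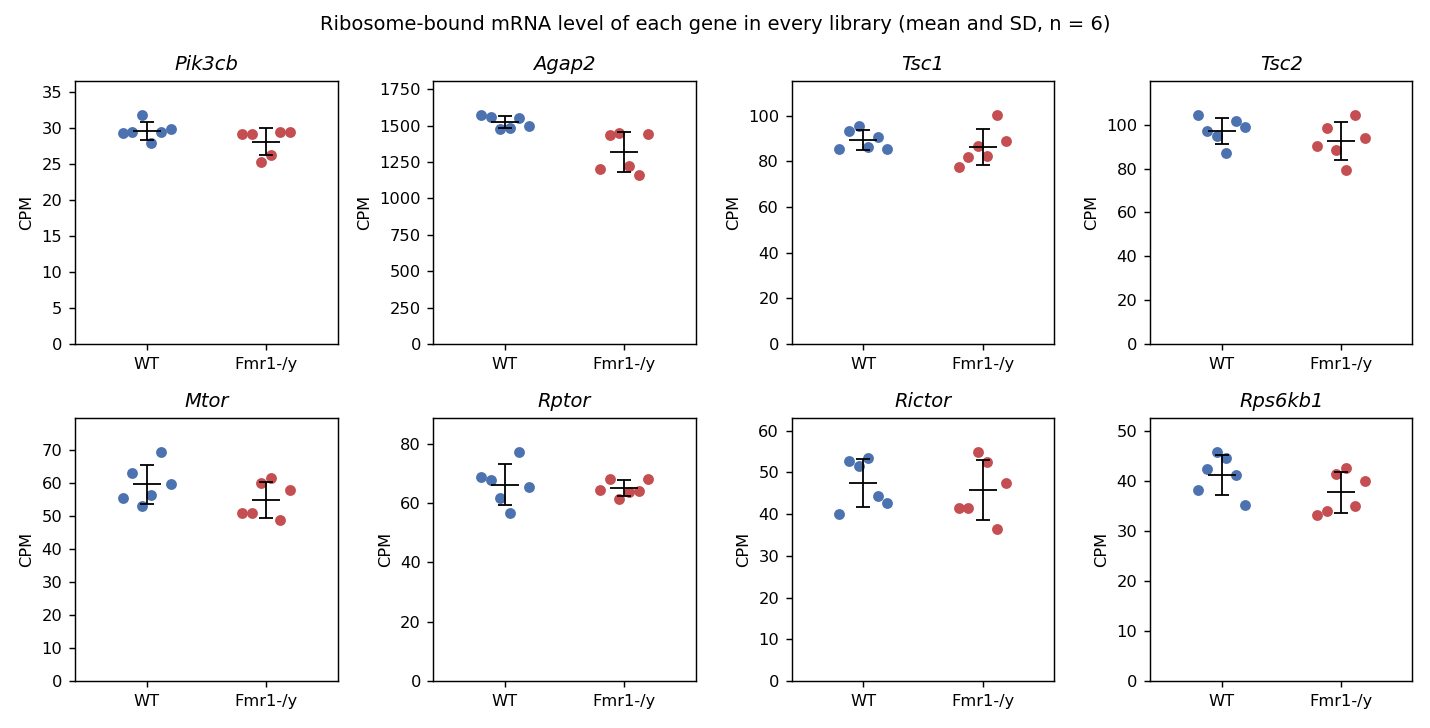
Each point is 1 library, with its level in CPM on the vertical axis from 0, for WT (blue) and Fmr1-/y (red), and the bars give the mean and SD (n = 6). The groups overlapped for 7 genes, and for Agap2 every Fmr1-/y library lay below every WT library.

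The PI3K level was represented by Pik3cb and Agap2. Pik3cb encodes the catalytic subunit p110beta of class I PI3K, which acts downstream of G protein-coupled receptors, and lies on chromosome 9 from 99036654 to 99140621 on the minus strand in GRCm38. It had the lowest CPM of the 8 genes, at 27.9 to 31.8 CPM in WT (median 29.4) and 25.3 to 29.5 CPM in Fmr1-/y (median 29.2). The Fmr1-/y group held 4 libraries close to the WT median and 2, replicates 3 and 4, below all WT libraries. The log2 fold change of Pik3cb was -0.07 (SE 0.07, 95% interval -0.21 to 0.07, adjusted p = 0.859), which spans levels from 86.2% to 105% of WT.

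Agap2 encodes PIKE, a GTPase of the Arf GAP family that binds PI3K and Akt and enhances their activity in neurons. It spans chromosome 10 from 127075284 to 127093169 on the plus strand, and its annotated RefSeq start shown above lies inside that span. Agap2 was among the genes with the most reads in these libraries. Its mean CPM, not corrected for length, was at the 99.7th percentile of all genes tested. WT libraries held 1477 to 1570 CPM with a median of 1523, and Fmr1-/y libraries held 1163 to 1451 CPM with a median of 1329. Replicates 1, 4 and 5 of the Fmr1-/y group were lowest, at 1205, 1225 and 1163 CPM, and replicates 2, 3 and 6 reached 1433, 1451 and 1442 CPM. The groups did not overlap, as was the case with Fmr1-/y lower for 0.41% of all genes tested and 0.628% of genes with a mean of at least 20 CPM, and with Fmr1-/y higher for 0.213% of all genes tested. The overlap-free order was lost when libraries were scaled to their totals without TMM.

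The log2 fold change of Agap2 was -0.21 (SE 0.07, 95% interval -0.34 to -0.07), a level of 86.7% of WT with limits of 78.8% and 95.4%. Its edgeR p was 0.0058 before adjustment and 0.378 after it, so the difference was not called. By p it stood at rank 268 of the genes tested. Over 19 other settings (other tools, scalings and filters, the replicate block, and each library left out in turn) the estimate ran from -0.23 to -0.17, with adjusted p between 0.153 and 0.690. The coefficient of variation between libraries was 2.70% in WT and 10.3% in Fmr1-/y, a difference that was not tested. Counting error alone would give 0.385% and 0.386%, below both values.

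Choroid plexus markers, from the epithelium of the ventricles, were set beside Agap2 library by library. Replicates 1, 4 and 5, where Agap2 was lowest, had the 3 highest choroid plexus sums of their group (17421, 13777 and 11669 CPM), and replicates 2, 3 and 6 had 8267, 10182 and 10706 CPM. This division into sets of 3 was taken from the Agap2 values, and the choroid plexus sums showed no wide gap between the sets (10706 and 11669 CPM). Within each set the replicate with the least Agap2, 5 or 2, had the lowest choroid plexus sum. The highest astrocyte sums did not fall on the same 3 replicates. Replicate 2, with 1433 CPM of Agap2, had the second highest astrocyte sum (2624 CPM) after replicate 1 (2858 CPM). Ttr made up most of the choroid plexus sum (mean 8323 CPM in WT and 11319 CPM in Fmr1-/y), with Folr1, Kl and Clic6 at means of 281 CPM or less. Slc1a2 made up most of the astrocyte sum (means of 1238 and 1465 CPM). All 4 choroid plexus markers had a higher estimate in Fmr1-/y, 2 of them at an unadjusted p under 0.05. Estimates were also higher for 6 of 6 astrocyte markers (3 at an unadjusted p under 0.05, summed level 1827 to 2132 CPM in WT and 1951 to 2858 CPM in Fmr1-/y) and 5 of 5 endothelial markers (3 at an unadjusted p under 0.05, 35.1 to 50.6 CPM against 45.3 to 66.7 CPM). Microglial markers were divided, with 4 of 6 higher. Other lists leaned lower, with 5 of 6 oligodendrocyte markers (1085 to 1629 CPM in WT and 978 to 1491 CPM in Fmr1-/y), 6 of 8 interneuron markers (109 to 233 CPM and 121 to 162 CPM) and 5 of 7 CA2, CA3 and dentate granule markers (245 to 289 CPM and 216 to 273 CPM) below 0, and none of the markers in these 4 lists had an unadjusted p under 0.05. The 5 CA1 markers all had lower estimates, 2 of them at an unadjusted p under 0.05, including Wfs1, whose promoter drives the Cre (log2 fold change -0.27, SE 0.09, edgeR adjusted p = 0.410). Camk2a made up most of the CA1 sum (mean 6207 CPM in WT and 5826 CPM in Fmr1-/y). That sum was 7830, 7769 and 8613 CPM in Fmr1-/y replicates 1, 4 and 5. In Fmr1-/y replicates 2, 3 and 6 it was 8731, 8120 and 9032 CPM, so its order was not that of Agap2. In WT, replicate 1 was highest in both (9705 CPM for the CA1 sum). In these bulk libraries a smaller share of CA1 pyramidal RNA and less Agap2 mRNA per CA1 cell cannot be told apart.

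With the choroid plexus marker level as a covariate, the log2 fold change of Agap2 was -0.12 (SE 0.07, edgeR adjusted p = 0.857, 0.0822 before adjustment). With the astrocyte marker level it was -0.14 (SE 0.08, 0.0959 before adjustment). Both settings were added after the data were seen. In WT, replicates 3 and 4 had the highest choroid plexus sums (11818 and 11108 CPM) and also the lowest Agap2 of that group (1477 and 1482 CPM). Fmr1-/y replicates 2, 3 and 6 lay below both in Agap2, at 1433 to 1451 CPM, with lower choroid plexus sums than either. The part of these cells in the Agap2 difference was not tested further.

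**Figure D2:**
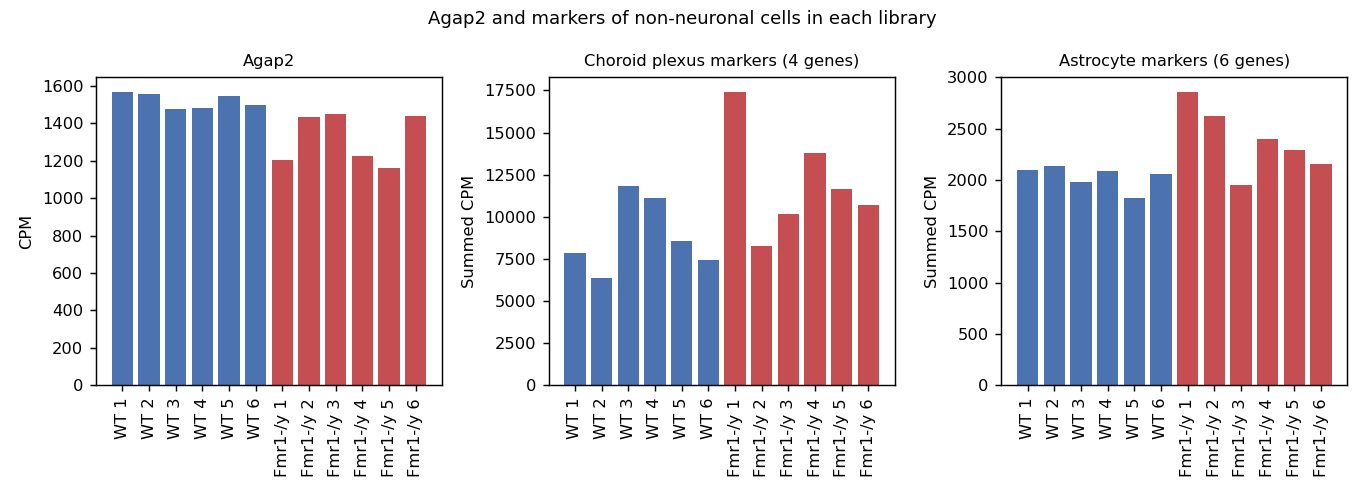
Bars give 1 library each, for WT replicates 1 to 6 (blue) and Fmr1-/y replicates 1 to 6 (red), with Agap2 in CPM on the left and the summed CPM of 4 choroid plexus and 6 astrocyte markers in the other panels. The lowest Agap2 bars, at 1163 to 1225 CPM, belong to Fmr1-/y replicates 1, 4 and 5, which also have the highest choroid plexus sums of the Fmr1-/y group.

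Tsc1 and Tsc2 encode hamartin and tuberin, whose complex holds back mTOR complex 1, tuberin being the part that inactivates Rheb. Mutations in either gene cause tuberous sclerosis, a disorder with epilepsy and autism. Tsc1 (chromosome 2 from 28641228 to 28691167, plus strand) ran from 85.2 to 95.3 CPM in WT (median 88.3) and from 77.5 to 100.1 CPM in Fmr1-/y (median 84.5). The Fmr1-/y libraries lay on both sides of the WT range, with replicate 5 highest of all 12. For Tsc1 the log2 fold change was -0.05 (SE 0.07, 95% interval -0.19 to 0.09, adjusted p = 0.922).

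Tsc2 (chromosome 17 from 24595816 to 24632630, minus strand) ran from 87.3 to 104.2 CPM in WT (median 97.9) and from 79.2 to 104.2 CPM in Fmr1-/y (median 92.1). Again the ranges overlapped, and only Fmr1-/y replicate 4 lay below all WT libraries. Its log2 fold change was -0.07 (SE 0.07, 95% interval -0.22 to 0.07, adjusted p = 0.863). Tsc2 shares 693 exonic bases with Pkd1 on the opposite strand, and the libraries were stranded. The 2 partners kept a similar ratio, with 0.820 to 1.004 reads on Tsc1 per read on Tsc2 in WT (median 0.927) and 0.831 to 1.04 in Fmr1-/y (median 0.955).

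Mtor encodes the kinase shared by both mTOR complexes, Rptor the scaffold Raptor that defines complex 1, and Rictor the subunit that defines complex 2, the kinase complex for the hydrophobic motif of Akt. Mtor (chromosome 4 from 148448611 to 148557683, plus strand) ran from 53.2 to 69.5 CPM in WT (median 58.2) and from 48.9 to 61.6 CPM in Fmr1-/y (median 54.4). Replicates 1, 2 and 5 of the Fmr1-/y group, at 48.9 to 50.9 CPM, lay below all WT libraries, and the other 3 lay inside the WT range. Mtor had a log2 fold change of -0.12 (SE 0.08, 95% interval -0.28 to 0.05, adjusted p = 0.797), a level of 92.3% of WT with limits of 82.1% and 104%.

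Rptor (chromosome 11 from 119602905 to 119899576, plus strand) was nearest to no difference. It ran from 56.7 to 77.2 CPM in WT (median 66.5), and the Fmr1-/y libraries, at 61.5 to 68.2 CPM (median 64.1), lay wholly inside that range. Its estimate was a log2 fold change of -0.03 (SE 0.07, 95% interval -0.18 to 0.12, adjusted p = 0.962). Rptor also had a smaller spread in Fmr1-/y (coefficient of variation 4.06%) than in WT (10.54%), a difference that was not tested.

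Rictor (chromosome 15 from 6708379 to 6800401, plus strand) had the widest spread between libraries of the 8 genes, with a coefficient of variation of 12.2% in WT and 15.7% in Fmr1-/y. It ran from 40.0 to 53.4 CPM in WT (median 47.9) and from 36.4 to 54.9 CPM in Fmr1-/y (median 44.5), with Fmr1-/y libraries both below and above all WT libraries. The log2 fold change of -0.05 (SE 0.10, 95% interval -0.27 to 0.16, adjusted p = 0.947) therefore left room for a level between 82.7% and 112% of WT. Rptor and Rictor reads stood in a ratio of 1.06 to 1.74 in WT (median 1.41) and 1.12 to 1.76 in Fmr1-/y (median 1.49), so the ratio of the 2 defining subunits varied as much within a genotype as between genotypes.

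Rps6kb1 encodes S6 kinase 1, which mTOR complex 1 activates and which phosphorylates ribosomal protein S6 and translation factors. Rps6kb1 (chromosome 11 from 86498871 to 86544805, minus strand) ran from 35.2 to 45.8 CPM in WT (median 41.8) and from 33.2 to 42.7 CPM in Fmr1-/y (median 37.5). Fmr1-/y replicates 1, 2 and 5 lay below all WT libraries at 33.2, 34.1 and 35.0 CPM, the same 3 replicates that were lowest for Mtor. S6 kinase 1 mRNA had a log2 fold change of -0.13 (SE 0.08, 95% interval -0.31 to 0.05, adjusted p = 0.773), a level of 91.4% of WT with limits of 80.7% and 103%. Among the 8 genes this estimate came after that of Agap2 in size. The 2 marker covariates moved it in opposite directions, to -0.019 with the astrocyte level and to -0.17 (SE 0.10) with the choroid plexus level.

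**Figure D3:**
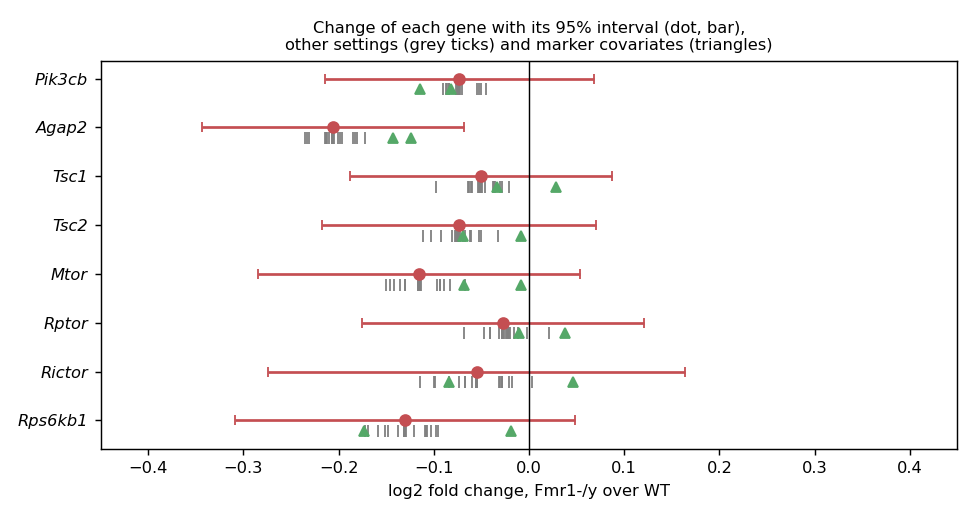
Dots and bars give the log2 fold change (Fmr1-/y over WT) of each gene with its 95% interval, grey ticks the 19 other settings, and triangles the fits with choroid plexus or astrocyte marker level as a covariate. The interval of Agap2, -0.34 to -0.07, is the only one that does not hold 0, and its triangles lie at -0.12 and -0.14.

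Each of the 7 genes other than Agap2 had a 95% interval that held no change. Over these 7 the lowest limit was 80.7% of WT (Rps6kb1) and the highest was 112% of WT (Rictor). At 1123 to 6802 reads per library, counting error was below the spread between replicates for each of them, and closest to it for Pik3cb in WT, with a coefficient of variation of 4.23% between libraries against 2.75% from counting. Several of the estimates moved by over 1.5 times with a marker level as a covariate. With the astrocyte level Mtor stood at -0.0081, with the choroid plexus level Mtor stood at -0.069 and Tsc2 at -0.0087, and Pik3cb reached -0.12 with the astrocyte level. Single libraries also mattered, since Mtor was at -0.067 without WT replicate 5, Tsc2 at -0.033 without Fmr1-/y replicate 4 and Pik3cb at -0.045 without Fmr1-/y replicate 3.

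Levels can be compared between the genes only per length. Per kilobase of merged exons, Agap2 stood far above the rest at 239 CPM per kb (mean over 12 libraries), followed by Tsc2 at 9.86, Tsc1 at 7.42, Mtor at 5.67, Rptor at 4.87, Rps6kb1 at 4.56, Pik3cb at 4.02 and Rictor at 2.75 CPM per kb. This order was the same in both genotypes. Neighbours from Mtor down to Pik3cb had overlapping ranges over the WT libraries, with Mtor at 5.27 to 6.87 and Rptor at 4.21 to 5.73 CPM per kb, so their order was not separated by the spread. It also depended on the length used, since with the longest transcript in place of all exons only 3 of the 8 genes kept their rank, and Rptor, at 9.95 CPM per kb, then stood above Mtor, at 6.70. Agap2, Tsc2 and Tsc1 were the 3 highest with either length, at 252, 15.1 and 11.4 CPM per kb of longest transcript.

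**Figure D4:**
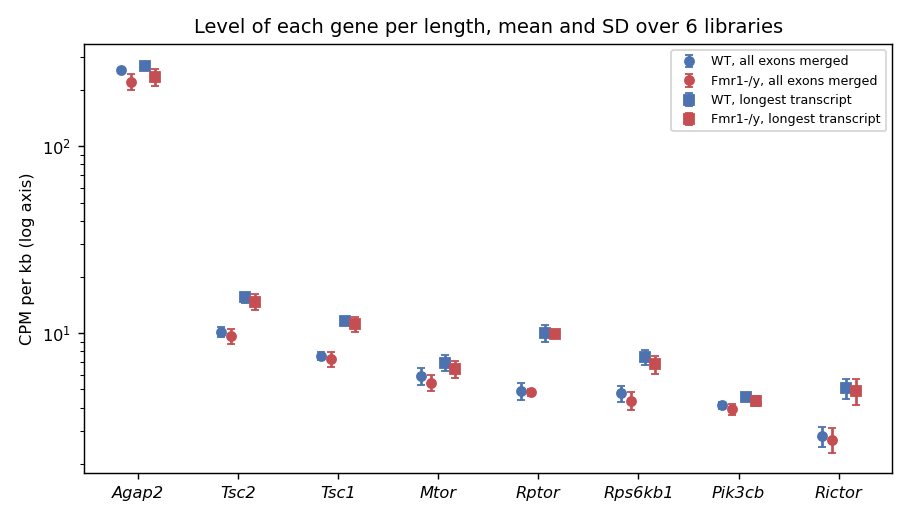
Points give the mean level in CPM per kb on a log axis with the SD over 6 libraries, for WT (blue) and Fmr1-/y (red), with length taken from all exons merged (circles) or the longest transcript (squares). With either length the means of Agap2 lie between 222 and 270 CPM per kb, and the highest mean of the other 7 genes is 15.5 (Tsc2).

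For each of the 8 genes, many genes outside the group had a more similar pattern across libraries than any fellow gene. For each of them the gene with the most similar pattern was sought among 12787 genes, by the root mean square (RMS) difference of log2 CPM over the 12 libraries after removing each gene's mean. The nearest gene to Agap2 was Bcat1, a cytosolic branched-chain aminotransferase (RMS difference 0.041, with a log2 fold change of its own of -0.20). Ulk1, the autophagy-initiating kinase that is one of the mTOR effectors listed below, was nearest to Mtor (0.063). Rptor was nearest to Sgip1 (0.048), Rictor to Sh3glb1 (0.043), Rps6kb1 to Zbtb4 (0.040), Tsc1 to Dopey2 (0.052), Tsc2 to Cpt1c (0.040) and Pik3cb to Nr3c1 (0.038).

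Among the 8 genes themselves, Tsc2 and Pik3cb were closest (RMS difference 0.086), followed by Tsc1 with Pik3cb and Rptor with Tsc2 (0.103 and 0.104) and Rictor with Rps6kb1 (0.106). The RMS deviation of a gene from its own mean was 0.083 for Pik3cb, 0.098 for Tsc1, 0.105 for Rptor and 0.112 for Tsc2. The distances between these 4 genes were thus about as large as their own variation. For Rictor and Rps6kb1 that deviation was 0.190 and 0.152, above their distance. The closest fellow gene held a rank between 419 and 1425 in the search for each of the 8. These distances rest on 12 libraries that differ in depth and cell mixture, and carry no test.

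The other genes of the pathway were taken from 11 lists by role, 88 genes in all and all of them tested. None passed an adjusted p of 0.05, which 0.0224% of all genes tested did. An unadjusted p under 0.05 was reached by 4 (4.55%), against 7.96% of all genes tested. None separated the genotypes without overlap. Of all genes tested, 0.41% did so with Fmr1-/y lower and 0.213% with Fmr1-/y higher, so no such gene among 88 is little to go by. Of the 88 estimates, 53 were lower and 35 higher in Fmr1-/y, with a median log2 fold change of -0.03.

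At the PI3K level 2 genes were lower at an unadjusted p under 0.05. Pik3r3 encodes the regulatory subunit p55gamma of class I PI3K and was the nearest to a call. It ran from 46.7 to 54.3 CPM in WT (median 50.1) and from 36.8 to 48.2 CPM in Fmr1-/y (median 43.1), and only Fmr1-/y replicate 1 lay inside the WT range. Its log2 fold change was -0.22 (SE 0.07, edgeR adjusted p = 0.378, 0.0053 before adjustment). In the 19 other settings its unadjusted p stayed under 0.05 throughout, as it did with either marker level as a covariate (-0.29 with the choroid plexus level and -0.24 with the astrocyte level).

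Pik3c2b, a class II PI3K, ran from 15.2 to 18.8 CPM in WT (median 16.7) and from 13.3 to 15.97 CPM in Fmr1-/y (median 13.8), with a log2 fold change of -0.24 (SE 0.08, edgeR adjusted p = 0.429, 0.0100 before adjustment). With the choroid plexus level as a covariate the estimate was -0.24 (0.0277 before adjustment), and with the astrocyte level it was -0.16 and no longer had an unadjusted p under 0.05 (0.137).

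Higher estimates at an unadjusted p under 0.05 came from 2 inhibitors of mTOR complex 1. Gatsl3, the table's symbol for the arginine sensor Castor1, was a low gene at 1.10 to 2.38 CPM in WT (median 1.73) and 1.79 to 2.94 CPM in Fmr1-/y (median 2.51), with 44 reads in its lowest library. Its log2 fold change was 0.52 (SE 0.19, edgeR adjusted p = 0.493, 0.0160 before adjustment), and it was 0.55 and 0.65 with the choroid plexus and astrocyte levels as covariates (0.0299 and 0.0185 before adjustment). Ddit4l, a stress-induced inhibitor, ran from 12.5 to 17.8 CPM in WT (median 15.2) and from 15.4 to 21.5 CPM in Fmr1-/y (median 17.96), with a log2 fold change of 0.24 (SE 0.11, edgeR adjusted p = 0.588, 0.0364 before adjustment). Its unadjusted p stayed under 0.05 in 12 of the 19 other settings, and was above it with the replicate block and when any 1 of 6 libraries was left out, at most 0.0983 without Fmr1-/y replicate 1. With the choroid plexus and astrocyte levels as covariates the estimate of Ddit4l was 0.20 and 0.14 (0.162 and 0.318 before adjustment).

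By role, 5 of 8 other class I PI3K subunits had lower estimates (median log2 fold change -0.04), as did 5 of 5 class II and III PI3K genes (-0.14), 3 of 4 PDK1 and Akt kinases (-0.10) and 4 of 6 insulin and IGF1 receptors and adaptors (-0.11). The relatives of Agap2 in the list of PI3K enhancers were both lower (-0.07), and 4 of 6 phosphoinositide and Akt phosphatases were lower (-0.02). Nearer to mTOR, 1 of 3 further TSC complex and Rheb genes was lower (0.06) and 3 of 8 further mTOR complex subunits were lower (0.04). The 11 effectors of both complexes split into 7 lower and 4 higher (-0.05), the 26 amino acid sensing genes into 14 and 12 (-0.01), and the 9 energy and stress genes into 5 and 4 (-0.0020). No gene of the lists for PI3K enhancers, PDK1 and Akt, phosphatases, receptors and adaptors, TSC and Rheb, mTOR complexes or effectors had an unadjusted p under 0.05, and the smallest adjusted p in those lists was 0.633.

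Single components of the route to mTOR illustrate these counts. Akt1, the first of the Akt kinases, had a median of 150 CPM in WT and 143 CPM in Fmr1-/y (log2 fold change -0.10, SE 0.06, edgeR adjusted p = 0.771). Rheb, the activator of mTOR complex 1, had medians of 78.2 and 84.7 CPM (-0.03, SE 0.09, adjusted p = 0.963). Its means, 85.3 CPM in WT and 83.3 CPM in Fmr1-/y, went the other way from its medians. Mlst8, a subunit of both mTOR complexes, had medians of 43.1 and 43.9 CPM (0.05, SE 0.06, adjusted p = 0.897). For each of these genes the ranges of the WT and Fmr1-/y libraries overlapped. The choice of these 3 genes was made with their values in view.

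**Figure D5:**
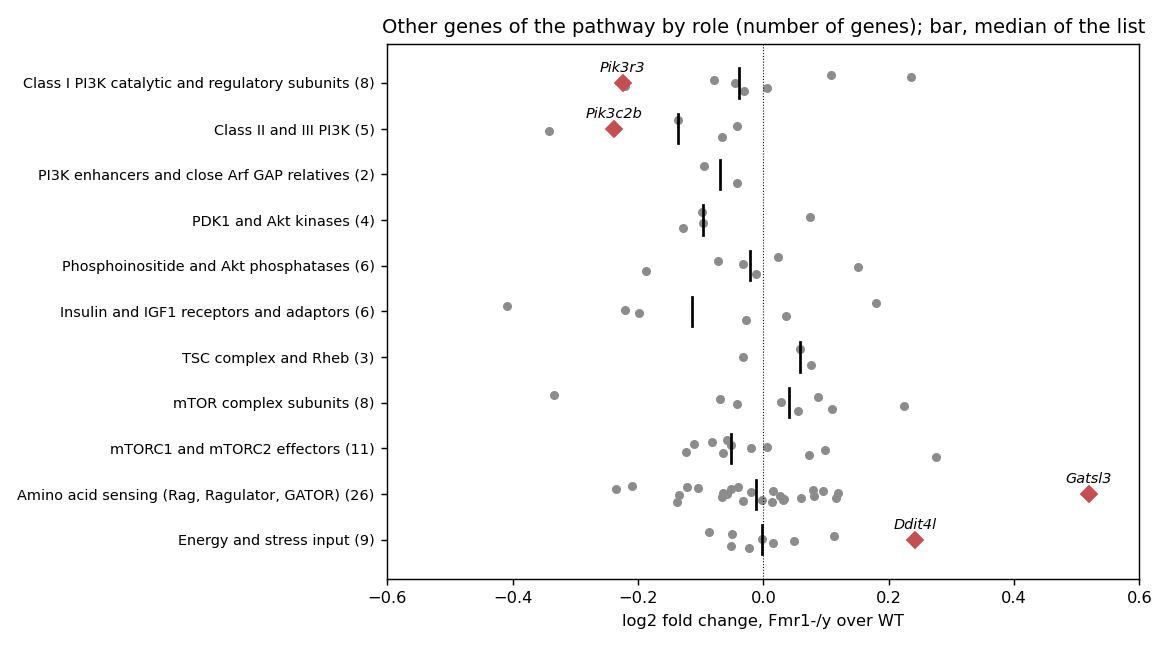
Each point is 1 of the 88 other pathway genes, placed by its log2 fold change (Fmr1-/y over WT) within its list, with the number of genes in brackets and a bar at the list's median. The 4 named diamonds have an unadjusted p under 0.05, and the list medians lie between -0.14 and 0.06.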

How the data were processed

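RNA bound to HA-tagged ribosomes was immunoprecipitated from hippocampus and sequenced from stranded libraries. The deposited table holds raw read counts per gene, which the authors made with bcl2fastq 2.17, TopHat2 2.1.1, Bowtie2 2.2.8 and HTSeq 0.6.1p1 on mm10, per the labels and the submitters' processing notes. Depth was 39400980 to 65565479 counted reads per library.

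The 17823 of 24079 genes that reached 15 reads in sum were tested in R 4.3.3 with edgeR 4.0.16 (TMM scaling, quasi-likelihood test, 6 against 6 libraries, no covariate, Benjamini-Hochberg adjustment over all genes tested, threshold 0.05). SE was the log2 fold change over the root of F, and the 95% interval used the fit's total degrees of freedom. Replicates were separate pools of mice. Alternatives were DESeq2 1.42.0, limma 3.58.1 (voom), 2 other scalings, 2 other filters on low counts, the replicate number as a block, leaving out each library, and, added after the data were seen, a marker level as a covariate. The procedure was tested on simulated counts. Like patterns used log2 CPM with a prior count of 2.

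The 8 genes, the pathway lists and the marker lists were chosen with earlier results of these data known, and 1 listed gene is not reported here. Named were all 8 genes, Fmr1, listed genes with an adjusted p under 0.05 or the 2 smallest unadjusted p under 0.05 per list and direction, and the gene of most similar pattern. Other genes named are said to be chosen after their values were seen, or serve as markers or as the example of a TOP start. Gene positions and lengths came from GENCODE M21 (GRCm38, the assembly of mm10) by Entrez ID, and start windows from RefSeq (GRCm38.p6), with all 8 genes matched in both.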

Additional observations from a re-analysis of the deposited data

Results flagged for a closer look

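The levels of the 8 genes, of the named pathway genes and of the marker lists were searched for libraries that stand far from the rest of their group by Dixon's ratio, in 40 groups of 6, of which chance alone flags about 1 in 20. A single group was flagged. The summed level of 7 markers of CA2, CA3 and dentate granule cells was 289 CPM in WT replicate 1 against 245 to 260 CPM in the other WT libraries, a ratio of gap to range of 0.655, above the critical value for 6 libraries. None of the 8 genes had such a library. In WT replicate 1, Rictor had its lowest WT level (40.0 CPM), and Agap2 and Tsc2 had their highest (1570 and 104.2 CPM). Whether these were related was not tested.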

How the results depend on the processing

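None of the 8 genes passed an adjusted p of 0.05 under any of the 19 settings chosen at the start or the 2 added after the data were seen. Agap2 had an unadjusted p under 0.05 in the first 19, and with a choroid plexus or astrocyte covariate 0 of the 8 genes did, in both fits. Its groups overlapped (0 genes without overlap) with library totals in place of TMM. Of all genes, edgeR called 4, DESeq2 84 and either covariate fit 1, and leaving out 1 library gave 2 to 6, with 2 without Fmr1-/y replicate 1, 4, 5 or 6 or WT replicate 4, 5 or 6. Of the 88 other pathway genes, 4 had an unadjusted p under 0.05, limma voom gave 7, and leaving out 1 library gave 4 to 10, with 10 without Fmr1-/y replicate 4, 8 without Fmr1-/y replicate 3 or WT replicate 6, and 7 without Fmr1-/y replicate 2. The sign turned for Rptor without WT replicate 5 (log2 fold change 0.021, range -0.068 to 0.021 over single libraries left out) and with the choroid plexus covariate (0.038), for Rictor without Fmr1-/y replicate 5 (0.0031, range -0.11 to 0.0031) and with the astrocyte covariate (0.047), and for Tsc1 with the astrocyte covariate (0.028). The causes were not tested. With the longest transcript as length, 3 of the 8 genes kept their rank.

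Replicate numbers were not taken to pair the samples, since the labels do not say that equal numbers belong together. The correlation of same-numbered deviations was also not above 0.1 in every pair. It lay between -0.08 and 0.09 over all genes, and between -0.24 and 0.35 over genes with a mean log2 CPM above 1. Over genes above 5 it lay between -0.44 (replicate 2) and 0.60 (replicate 4), with replicates 1 and 3 at 0.38 and 0.44. Pairs with unlike numbers were not compared, so these values cannot show whether pairing was absent. With the replicate block 4 genes were called, 0 of them among the 8, and Agap2 stood at -0.21 (edgeR adjusted p = 0.299).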
